A study of Mus musculus with 9 samples.

Results

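The Arp2/3 complex, the nucleation promoting factors *Wasl* and *Wasf1*, and cofilin were followed here as 10 genes. They are 7 subunits of the complex (*Actr2*, *Actr3*, *Arpc1a*, *Arpc2*, *Arpc3*, *Arpc4* and *Arpc5*), 2 nucleation promoting factors and the cofilin gene *Cfl1*. Members were chosen by name: every non-control probe of the array whose gene name is one of the 10. This gave 17 of the 39429 probes on the array, and 10 of its 31093 gene names. *Actr3*, *Actr2*, *Arpc1a*, *Arpc2* and *Wasf1* have 1 probe each, *Arpc4*, *Arpc5* and *Wasl* have 2, and *Arpc3* and *Cfl1* have 3. All 17 probes passed the filter on dim signals, and all were well above background on every array that measured them.

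Gene expression was profiled in the hippocampus of male mice, 9 months old, of strain C57BL/6J, on one-colour Agilent arrays with 1 mouse per array and 3 mice per genotype. IF1-KO mice lack ATPase inhibitory factor 1 (IF1), the mitochondrial protein that inhibits the ATP synthase, because exon 3 of the floxed *Atp5if1* gene was deleted by a *Camk2a*-driven Cre. IF1-TG mice carry human IF1 under a tetracycline-responsive promoter, switched on by a transactivator that is also driven by *Camk2a*. Control mice are labelled CRL, and the labels do not give their alleles. The *Camk2a* promoter is active mostly in excitatory neurons of the forebrain, so other cells of the hippocampus keep their own *Atp5if1* and carry no induced transgene. The targeted *Atp5if1* allele came from a C57BL/6NTac line. Other parental lines had passed through mixed backgrounds (B6;SJL, B6.CBA and B6;CBA) before the mice were kept on C57BL/6J.

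Branched actin networks give dendritic spines their shape. The Arp2/3 complex binds the side of an existing filament and starts a new branch on it, with the actin-related proteins Arp2 (*Actr2*) and Arp3 (*Actr3*) forming the first step of the new filament and the ArpC subunits holding them in place. The complex is inactive until a nucleation promoting factor binds it: N-WASP (*Wasl*) acts downstream of Cdc42, and WAVE1 (*Wasf1*) downstream of Rac1. Cofilin severs and disassembles actin filaments. It is switched off by LIM kinases, which phosphorylate it, and on again by slingshot phosphatases. All values below are RNA levels in whole hippocampus. They say nothing of protein level or phosphorylation, and in such bulk tissue fewer cells of a type and less RNA per cell cannot be told apart.

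Probes of *Actr3*, *Cfl1* and *Wasl* are shown by sequence, in whole or in part, 5′ to 3′, because probes of *Cfl1* and of *Wasl* gave different answers. The *Cfl1* probe that differed most between genotypes, A_55_P2000548, is not among those shown. Positions are those of the array's own annotation on the mm9 build. The *Actr3* probe is annotated to chrX:79065771-79065830 on the minus strand, whereas RefSeq places *Actr3* on chromosome 1. Its first 30 bases are:
Actr3 A_51_P217535: ttagtgccagtccctgacatatcatgaaaa
For *Cfl1* the last 30 bases of the probes other than A_55_P2000548 are given. That probe is annotated just downstream of A_52_P748958, on the same strand of chromosome 19. A_52_P748958 lies at chr19:5493882-5493941 on the plus strand, and A_55_P1974788 is annotated to chr8:43332671-43332730 on the plus strand, away from the gene on chromosome 19:
Cfl1 A_52_P748958: ccccagctggctcccttcccctttcctttg
Cfl1 A_55_P1974788: actgcaccctggcagagaaactaggtggca
The brighter *Wasl* probe, which has no position in the annotation, has 1 reading frame free of stop codons and is given whole. The dimmer one lies at chr6:24564419-24564478 on the minus strand, has a stop codon in each of its 3 frames, and is given by its first 30 bases:
Wasl A_52_P96782: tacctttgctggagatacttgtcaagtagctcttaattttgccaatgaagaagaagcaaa
Wasl A_52_P520564: tgacgtggagaaaacattttcatgcctaaa

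Levels are log2 processed signals minus the 75th percentile of the same array, so a value of 1 is double that percentile. Genotypes are compared at 1 probe at a time. Where a difference between probes on the same array is given, the difference is compared between genotypes, and its size says nothing of which RNA is more abundant. The study's thresholds were used: a probe was called when it differed by at least 1.5-fold with an unadjusted *P* below 0.05 in limma, a linear model that pools the spread over all probes. The Benjamini-Hochberg adjusted *P* over all 27993 probes tested is given beside it. No member passed an adjusted *P* of 0.05. Over the whole array 3 probes passed it between IF1-TG and IF1-KO, 1 between IF1-TG and CRL, and 0 between IF1-KO and CRL, where limma gave 718 at an unadjusted *P* below 0.05. The counts for the IF1-TG comparisons rose to 56 and 30 without IF1-TG replicate 3 and to 63 and 64 without slide 1, and that against CRL to 12 without CRL replicate 3. The 3 fell to 0 in 11 of the 21 settings, among them leaving out any single IF1-KO array, and the 0 rose to 4 without CRL replicate 2.

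Some facts of the whole data set bear on the results. The share of probes well above background was 66.7% to 69.5% on the IF1-TG arrays, 71.0% to 72.9% on IF1-KO and 72.2% to 74.9% on CRL. Slide 1 held 2 of the 3 IF1-TG arrays and no other genotype, so for that pair of arrays the effects of slide and of genotype cannot be told apart. Slide 2 held 1 IF1-KO, 2 CRL and 1 IF1-TG array, and slide 3 held 2 IF1-KO and 1 CRL. The probe for the targeted gene, named *Atpif1* on the array, gave 5.20 for IF1-KO replicate 2 and 5.53 for IF1-KO replicate 3, whereas the array labelled IF1-KO replicate 1 gave 6.43, against 6.19 to 6.34 in CRL and 6.38 to 6.51 in IF1-TG. The array labelled IF1-KO replicate 1 is therefore at the level of the other genotypes, and member results are also given without it where that changes them. Without it, the genes called over the array between IF1-KO and CRL went from 294 to 496, and the calls between IF1-TG and IF1-KO among 58 further genes of the actin pathway, described below, from 0 to 1. Where this probe lies relative to the deleted exon was not examined. Markers of hippocampal neurons were well above background on every genotype's arrays, with a summed level of 94.2 to 121 times the 75th percentile over the 9 arrays, and 0 of 8 were called in any comparison. Choroid plexus markers ranged from 1.94 to 95 in IF1-KO, 2.87 to 117 in CRL and 4.67 to 177 in IF1-TG, and oligodendrocyte markers from 80 to 117 in IF1-KO and 117 to 145 in IF1-TG, with CRL overlapping both. Microglia markers summed to 26.1 to 28.9 in IF1-KO, below the 29.9 to 32 of CRL and the 30.9 to 34.3 of IF1-TG without overlap, and *Arpc1a* separated the same arrays. Gene by gene the microglia list shifted little. Its median was -0.03 for IF1-KO minus CRL, with 3 of 8 positive, against -0.01 over all genes. For IF1-TG minus IF1-KO it was 0.06, with 6 of 8 positive, against 0.01. Striatum markers summed to 6.85 to 8.06 in IF1-KO, 7.75 to 12.7 in CRL and 6.7 to 12.4 in IF1-TG, with overlap. Gene by gene they were below CRL, with 0 of 6 positive and a median of -0.38 in IF1-TG and -0.42 in IF1-KO. *Adora2a* was called lower in both, on a dim probe. CRL replicate 3 read -1.87 on it, against -3.35 and -3.61 on the other CRL arrays, and IF1-TG replicate 3, at -3.48, overlapped CRL. All markers of these lists were detected, none of the choroid plexus, oligodendrocyte or microglia markers was called, and their part in the results was not tested.

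*Actr3*, the Arp3 subunit, was lower in IF1-TG than in both other genotypes. Its level was 2.93, 2.86 and 3.39 on the 3 IF1-TG arrays, 4.01, 3.75 and 4.0 on the IF1-KO arrays, and 4.26 and 3.95 on CRL replicates 2 and 3. Every IF1-TG array lay below every array of the other genotypes. The CRL replicate 1 spot was marked as an outlier by the scanner software and left out, so that CRL stands at n = 2 for this gene; its signal, 3.96, would fall among the other CRL and IF1-KO values. *Actr3* was 1.82-fold higher in IF1-KO than in IF1-TG (log2 difference IF1-TG minus IF1-KO -0.86, SE 0.18, 95% interval -1.28 to -0.44, unadjusted *P* = 0.00171 in limma, adjusted *P* = 0.657). It was 2.06-fold higher in CRL than in IF1-TG (-1.04, SE 0.20, interval -1.51 to -0.57, unadjusted *P* = 0.00107, adjusted *P* = 0.341 in limma). IF1-KO and CRL differed by -0.18 (SE 0.20, interval -0.65 to 0.29, unadjusted *P* = 0.397 in limma).

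The IF1-TG arrays of slide 1 gave the 2 lowest *Actr3* values. Within slide 2, where all 3 genotypes were hybridized, the single IF1-TG array lay 0.62 below the single IF1-KO array and 0.86 below the single measured CRL array. That IF1-KO array is replicate 1, on which *Atpif1* was not reduced. The difference from IF1-KO was -0.53 when both slide 1 arrays were left out (unadjusted *P* = 0.0505 in limma, adjusted *P* = 0.519), which ended that call, and ranged from -1.04 to -0.53 over 20 settings with adjusted *P* from 0.105 to 0.997. The difference from CRL was called in each of the 20 settings that gave a value. It ranged from -1.21 to -0.71, with adjusted *P* from 0.0886 to 0.711 in limma. The part of the lower detection on IF1-TG arrays, and of the probe's annotated place on another chromosome, was not tested. The array probe nearest to that place, -400.5 kb from it, was too dim to be kept. The nearest one kept, for *Tmem47* at -725 kb, differed by 0.22 between IF1-TG and IF1-KO (unadjusted *P* = 0.298 in limma). A probe so far away cannot show what the *Actr3* probe detects.

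**Figure D1:**
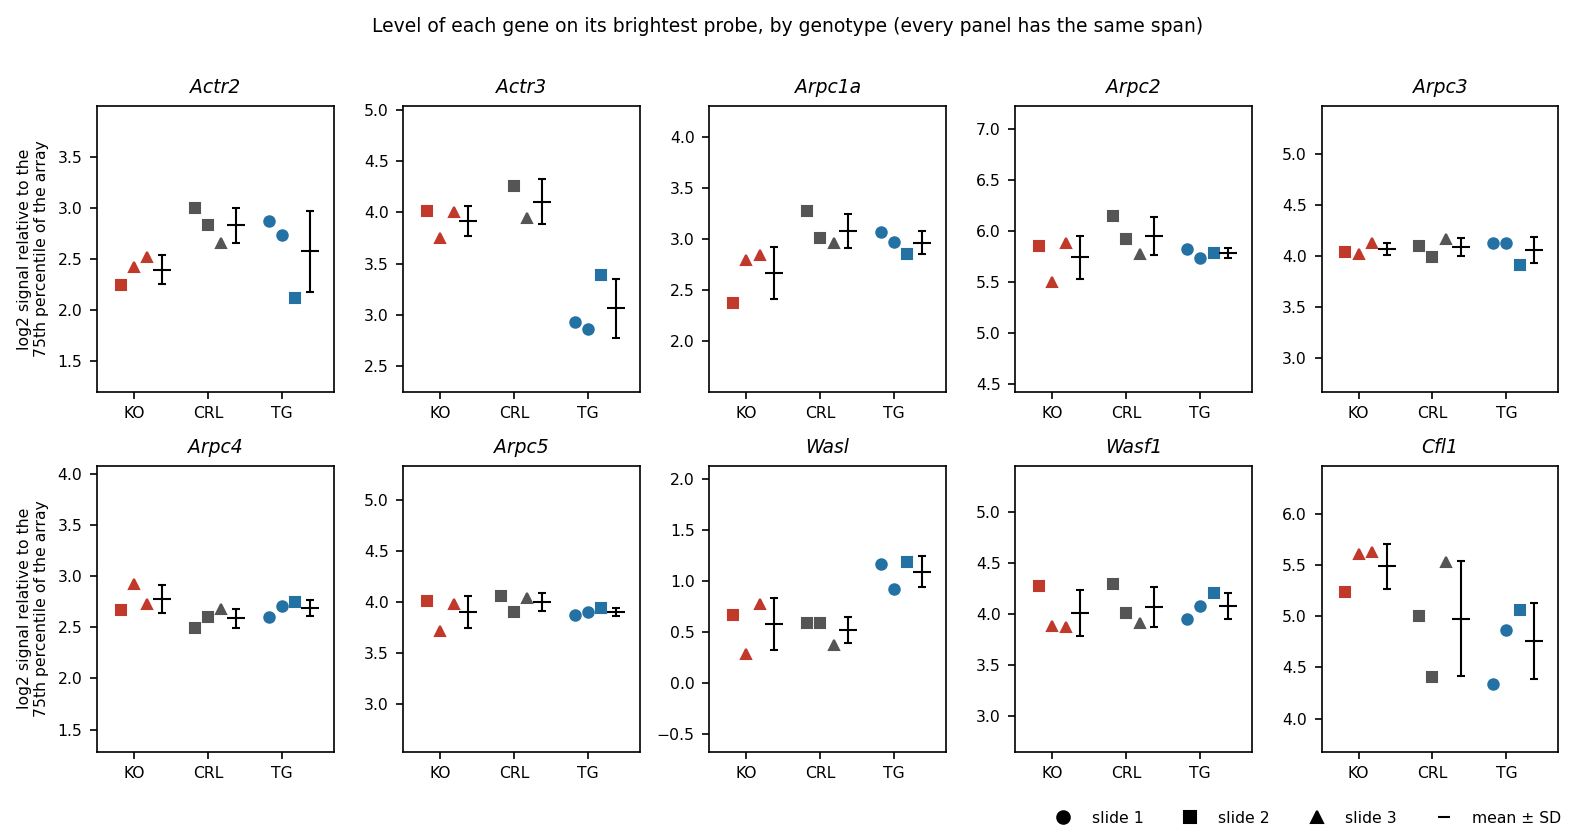
Level of each of the 10 genes on its brightest probe, as log2 signal above the array's 75th percentile (y axis), by genotype (x axis). Points are single mice, their shape gives the slide, and bars are mean ± SD (n = 3, and 2 for *Actr3* in CRL). Every panel has the same span. *Actr3* is lower and *Wasl* higher on each IF1-TG array than on any other array, and *Cfl1* spreads widely within CRL.

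*Actr2*, the Arp2 subunit that pairs with Arp3, did not show that pattern. Its level was 2.87, 2.73 and 2.12 in IF1-TG, 2.24, 2.42 and 2.52 in IF1-KO, and 3.00, 2.83 and 2.66 in CRL. Every IF1-KO array lay below every CRL array, and the IF1-TG arrays spanned both. The IF1-KO minus CRL difference was -0.44 (SE 0.20, interval -0.90 to 0.03, unadjusted *P* = 0.062 in limma), which did not pass. IF1-TG minus CRL was -0.26 (SE 0.20, unadjusted *P* = 0.235 in limma). With slide as a fixed term it became -0.72 (unadjusted *P* = 0.0118 in limma) and was called. For IF1-TG that estimate rests on its single slide 2 array, which gave the lowest of the 3 IF1-TG values.

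*Arpc1a*, a WD-repeat subunit to which nucleation promoting factors bind, read 2.37, 2.79 and 2.84 in IF1-KO, 3.27, 3.01 and 2.96 in CRL, and 3.07, 2.97 and 2.85 in IF1-TG. The IF1-KO arrays lay below all the others, IF1-KO replicate 1 most of all. The IF1-KO minus CRL difference was -0.41 (SE 0.16, interval -0.77 to -0.05, unadjusted *P* = 0.0306 in limma, adjusted *P* = 1), under the 1.5-fold threshold. It was -0.77 within slide 2 and -0.14 within slide 3, and the wider gap includes the array labelled IF1-KO replicate 1, on which *Atpif1* was not reduced. Without that array the difference was -0.26 (unadjusted *P* = 0.114 in limma).

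*Arpc2*, which with *Arpc4* makes the core that contacts the mother filament, gave 5.85, 5.50 and 5.88 in IF1-KO, 6.15, 5.92 and 5.78 in CRL, and 5.83, 5.74 and 5.79 in IF1-TG. The genotypes overlapped, and the largest of its 3 differences was -0.21, between IF1-KO and CRL. *Arpc4* read 2.67, 2.93 and 2.73 in IF1-KO, 2.49, 2.60 and 2.68 in CRL, and 2.60, 2.71 and 2.75 in IF1-TG on its brighter probe, and its dimmer probe ranged from -0.88 to -0.20 over the 9 arrays. Neither probe was called in any comparison.

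*Arpc3*, a peripheral subunit next to Arp3, was the steadiest of the set on its brightest probe. It read 4.04, 4.02 and 4.13 in IF1-KO, 4.10, 3.99 and 4.17 in CRL, and 4.13, 4.13 and 3.91 in IF1-TG, and its SD within genotype, 0.10, lay at percentile 8.1 of all tested probes. The differences were -0.01 for IF1-TG minus IF1-KO, -0.03 for IF1-TG minus CRL and -0.02 for IF1-KO minus CRL. Its second probe ranged from 2.84 to 3.31 over all arrays. The dimmest probe read -0.22, -0.21 and -0.21 in IF1-KO and -0.36, -0.53 and -0.43 in CRL, without overlap, but differed by only 0.23 (unadjusted *P* = 0.162 in limma).

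*Arpc5*, which tethers Arp2 within the complex, gave 4.01, 3.72 and 3.98 in IF1-KO, 4.06, 3.90 and 4.04 in CRL, and 3.87, 3.90 and 3.94 in IF1-TG on its brighter probe, with overlap throughout. The dimmer probe ranged from 0.64 to 1.64, and its differences from CRL of -0.34 in IF1-KO and -0.37 in IF1-TG were not called. Of the 7 subunits, *Actr3* was thus called in 2 comparisons and the other 6 in none.

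The subunits, summarised as a set, did not separate the genotypes. Taken on the brightest probes and relative to the CRL mean, the median of the subunits was -0.09, -0.29 and -0.07 on the IF1-KO arrays, 0.11, -0.03 and -0.12 on the CRL arrays, and 0, -0.10 and -0.17 on the IF1-TG arrays. These ranges overlap between all 3 genotypes. *Actr3* minus the median of the other 6 subunits, taken within each array, was -0.54, -0.58 and 0.01 in IF1-TG, 0.67, 0.42 and 0.59 in IF1-KO, and 0.80 and 0.45 in CRL. Its mean was -0.37 ± 0.33 (SD, n = 3) in IF1-TG and 0.56 ± 0.12 (SD, n = 3) in IF1-KO. The difference of -0.93 gave *P* = 0.1 in a two-sided exact permutation test, the smallest that 3 against 3 arrays allow. Adjusted over the 9 comparisons of this kind, *P* was 0.3 in the same exact test, and the quantities compared were chosen after the levels had been seen.

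**Figure D2:**
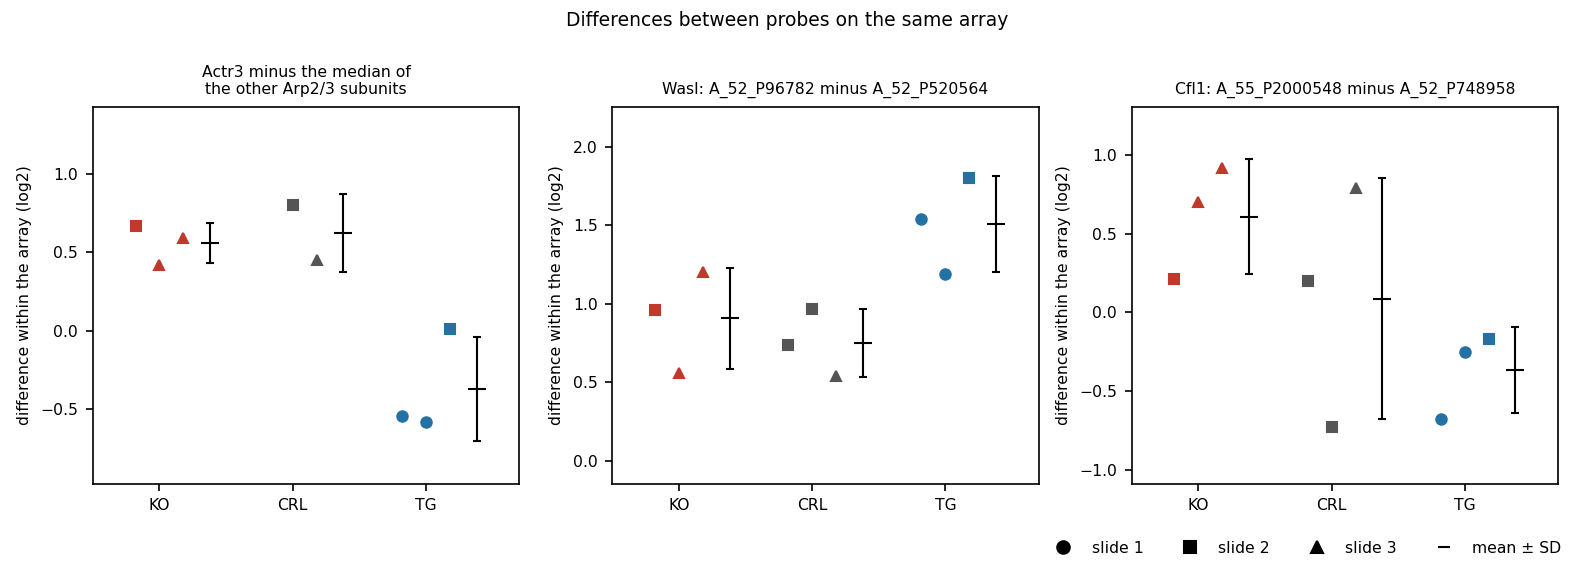
Differences between probes on the same array (log2, y axis) by genotype (x axis), for *Actr3* minus the median of the other 6 Arp2/3 subunits, and for pairs of *Wasl* and *Cfl1* probes. Points are arrays, shapes are slides and bars are mean ± SD. The IF1-TG arrays reach at most 0.01 for *Actr3*, where the other arrays start at 0.42.

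*Cfl1*, the gene of non-muscle cofilin, was called lower in IF1-TG against IF1-KO on its brightest probe and on no other. The brightest probe, A_55_P2000548, read 5.24, 5.61 and 5.63 in IF1-KO, 4.34, 4.87 and 5.06 in IF1-TG, and 5.00, 4.41 and 5.53 in CRL. IF1-TG and IF1-KO did not overlap, while the CRL arrays spread over the range of both. The level was 1.66-fold higher in IF1-KO (IF1-TG minus IF1-KO -0.73, SE 0.30, interval -1.41 to -0.06, unadjusted *P* = 0.0362 in limma, adjusted *P* = 0.687). IF1-TG minus CRL was -0.22 (unadjusted *P* = 0.472) and IF1-KO minus CRL 0.51 (SE 0.30, unadjusted *P* = 0.119), neither of them called in limma.

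The other *Cfl1* probes did not share this difference. A_52_P748958 read 5.03, 4.91 and 4.71 in IF1-KO, 4.80, 5.14 and 4.74 in CRL, and 5.02, 5.12 and 5.23 in IF1-TG. Here the mean was on the other side, IF1-TG minus IF1-KO being 0.24 (SE 0.15, interval -0.09 to 0.57, unadjusted *P* = 0.137 in limma), and the genotypes overlapped. A_55_P1974788 read 3.28, 3.48 and 3.40 in IF1-KO, 3.21, 3.22 and 3.40 in CRL, and 3.1, 3.51 and 3.20 in IF1-TG, a difference of -0.12 (interval -0.43 to 0.20, unadjusted *P* = 0.423 in limma). Within each array, A_55_P2000548 minus A_52_P748958 was 0.61 ± 0.36 (SD, n = 3) in IF1-KO and -0.37 ± 0.27 (SD, n = 3) in IF1-TG, without overlap. That gap of -0.98 again gave the smallest *P* this design allows (*P* = 0.1, adjusted *P* = 0.3, exact permutation test).

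The probe that was called also varied more than most. Its SD within genotype was 0.41, at percentile 80.1 of all tested probes, whose median was 0.24, against 0.17 and 0.15 for the other *Cfl1* probes. Within slide 2, with 1 IF1-TG array against IF1-KO replicate 1 alone, its IF1-TG minus IF1-KO difference was -0.17. That IF1-KO array had *Atpif1* not reduced and the lowest IF1-KO value on this probe. Without it the difference was -0.86 (unadjusted *P* = 0.0362 in limma). With slide as a fixed term the difference was -0.03 (unadjusted *P* = 0.939 in limma). The call was lost in 8 of 21 alternative settings. Among them, leaving out IF1-KO replicate 2 gave -0.68, IF1-KO replicate 3 -0.67, CRL replicate 1 -0.73, IF1-TG replicate 1 -0.52, IF1-TG replicate 2 -0.79, and both slide 1 arrays -0.43. Without CRL replicate 3, IF1-KO minus CRL became 0.79 (unadjusted *P* = 0.0221 in limma) and was called.

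**Figure D3:**
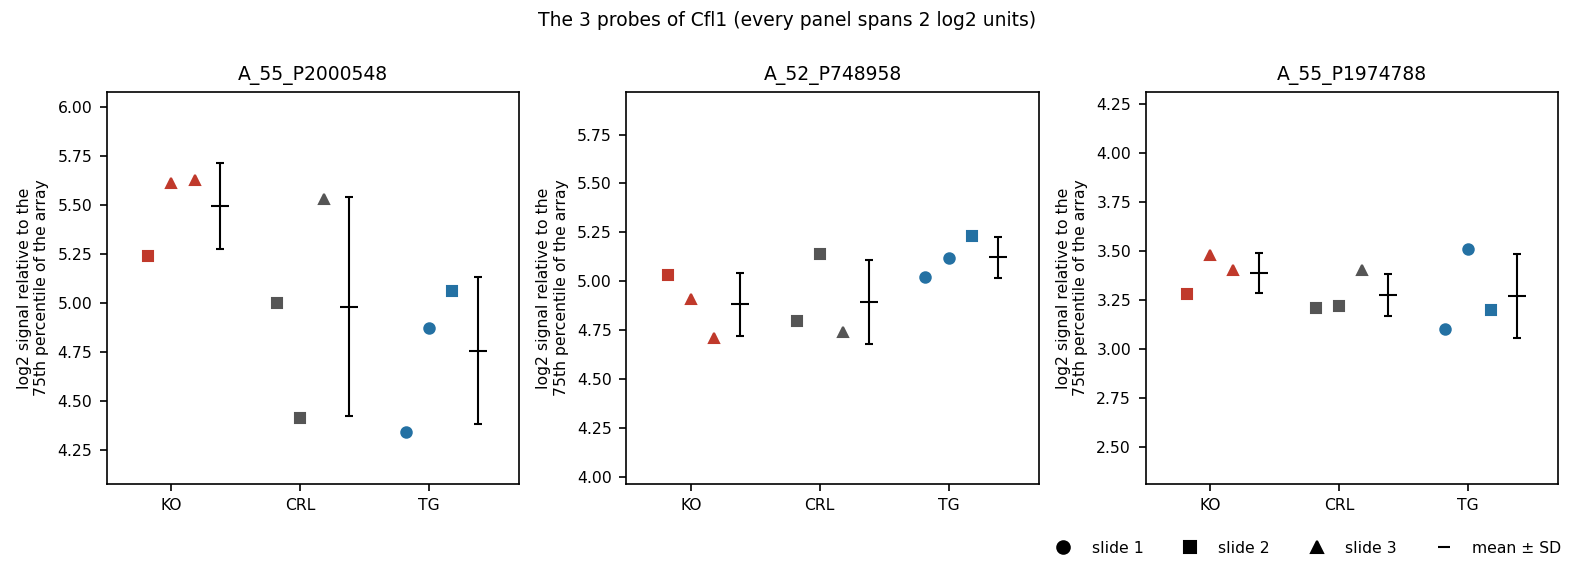
The 3 *Cfl1* probes, as log2 signal above the array's 75th percentile (y axis), by genotype (x axis). Points are mice, shapes are slides and bars are mean ± SD (n = 3), and each panel spans 2 log2 units. A_55_P2000548 separates IF1-KO from IF1-TG, with CRL from 4.41 to 5.53, and the other probes do not.

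*Wasl*, which encodes N-WASP, was higher in IF1-TG on its brighter probe, just under the fold threshold. It read 1.17, 0.92 and 1.19 in IF1-TG, 0.67, 0.29 and 0.78 in IF1-KO, and 0.59, 0.59 and 0.37 in CRL. Each IF1-TG array exceeded every other array. The difference was 0.51 from IF1-KO (SE 0.16, interval 0.15 to 0.87, 1.43-fold, unadjusted *P* = 0.0106, adjusted *P* = 0.66 in limma) and 0.58 from CRL (SE 0.16, interval 0.22 to 0.94, 1.49-fold, unadjusted *P* = 0.0057, adjusted *P* = 0.438 in limma). Within slide 2, with 1 IF1-TG array against 1 IF1-KO array (replicate 1, with *Atpif1* not reduced) and 2 CRL arrays, it was 0.52 and 0.61. With slide as a fixed term it was 0.50 against IF1-KO (unadjusted *P* = 0.0884 in limma), no longer below 0.05, and 0.62 against CRL (unadjusted *P* = 0.0327 in limma). Small changes of setting moved it over 1.5-fold, in 4 of 21 alternatives against IF1-KO and in 5 of 21 against CRL. Without IF1-KO replicate 2 the difference from IF1-KO was 0.37.

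The dimmer *Wasl* probe did not separate the genotypes. It read -0.37, -0.27 and -0.61 in IF1-TG, -0.29, -0.27 and -0.42 in IF1-KO, and -0.15, -0.38 and -0.17 in CRL. The genotypes overlapped, and the differences of -0.09 from IF1-KO and -0.18 from CRL were not called. Within each array the brighter minus the dimmer probe was 1.51 ± 0.31 (SD, n = 3) in IF1-TG, 0.91 ± 0.32 in IF1-KO and 0.75 ± 0.22 in CRL. IF1-TG and CRL did not overlap in it (*P* = 0.1, the smallest this design allows, adjusted *P* = 0.3, exact permutation test). IF1-TG and IF1-KO did overlap (*P* = 0.2, adjusted *P* = 0.36, exact permutation test). This pair of probes, too, was chosen after the levels had been seen.

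*Wasf1*, which encodes WAVE1, did not separate the genotypes. Its level was 4.27, 3.88 and 3.87 in IF1-KO, 4.29, 4.01 and 3.91 in CRL, and 3.95, 4.08 and 4.20 in IF1-TG. The differences were 0.07 for IF1-TG minus IF1-KO (interval -0.29 to 0.43), 0.01 for IF1-TG minus CRL (interval -0.35 to 0.37) and -0.06 for IF1-KO minus CRL. These intervals do not reach the 1.5-fold threshold in either direction, while smaller changes lie within them.

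**Figure D4:**
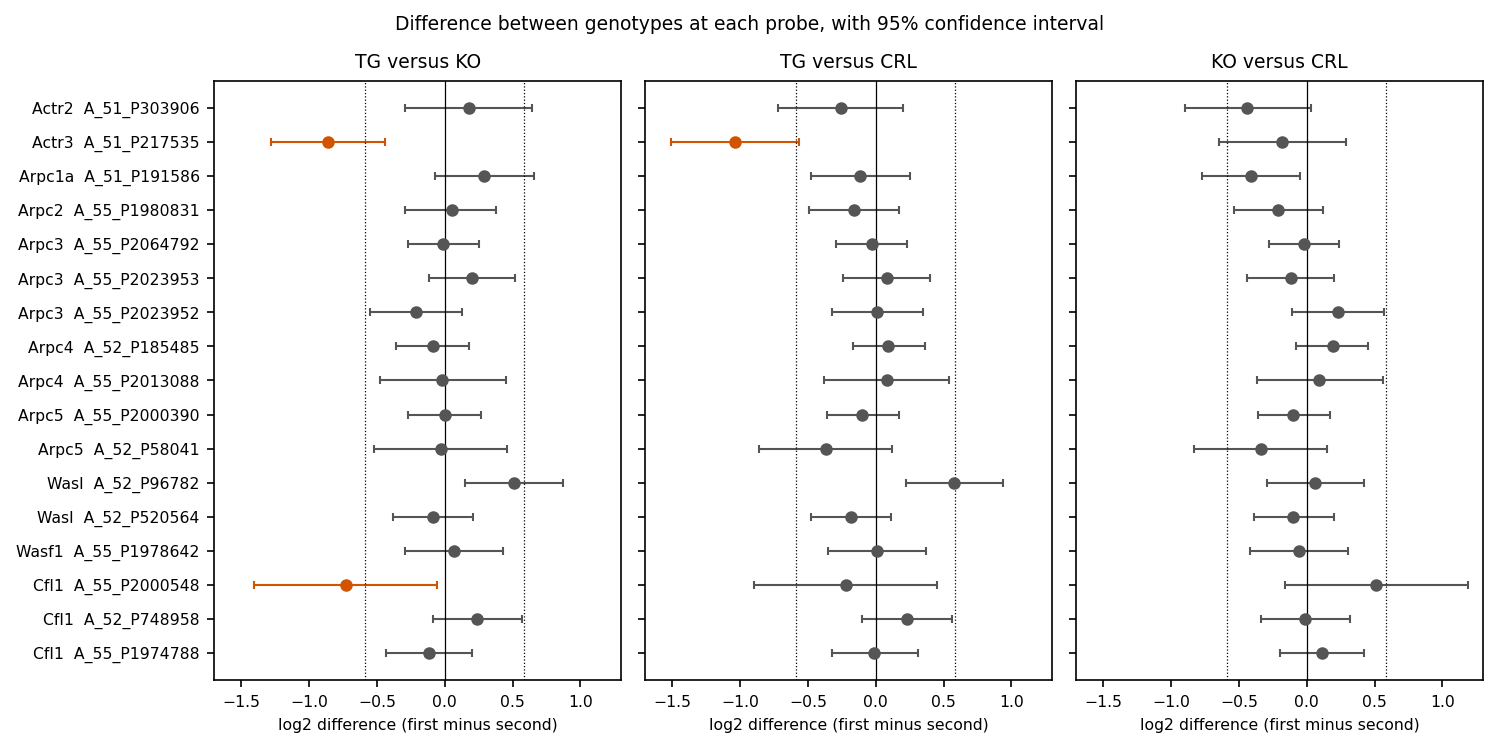
Log2 difference (x axis, first genotype minus second) at each of the 17 probes (y axis) in the 3 comparisons. Points are limma estimates, bars their 95% intervals, orange points passed both thresholds and dotted lines mark 1.5-fold. Orange points are *Actr3* in both IF1-TG comparisons and 1 *Cfl1* probe in IF1-TG versus IF1-KO.

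Over the 17 probes, 2 were called in IF1-TG versus IF1-KO, both lower, where 3.77% of all tested probes were called. IF1-TG versus CRL called 1, against 4.47% of all probes, and IF1-KO versus CRL called 0, against 1.06%. At an unadjusted *P* below 0.05 alone there were 3, 2 and 1 member probes in limma. Arrays of the 2 genotypes did not overlap at 4 of 17 probes for IF1-TG versus IF1-KO, 2 higher and 2 lower, against 13.6% of all probes. They did not overlap at 1 of 16 for IF1-TG versus CRL, against 12.2%, where *Actr3* was not counted for want of its CRL replicate 1 spot, and at 3 of 16 for IF1-KO versus CRL, against 8.00%. The median difference over the 10 genes, each on its brightest probe, was 0.02, -0.11 and -0.08 in that order, and over all genes 0.01, 0 and -0.01. The IF1-TG versus IF1-KO and IF1-TG versus CRL comparisons share the IF1-TG arrays, so the *Actr3* and *Wasl* differences in them are not independent of each other.

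Beyond the members, 58 genes of the same pathway were listed in 5 groups, and all 58 were measured. No gene of any group was called in IF1-TG versus IF1-KO, where 4.70% of all genes had a called probe, and 1 of their 86 probes had an unadjusted *P* below 0.05 in limma. IF1-TG versus CRL called 2 of 58, against 5.59% of all genes, and IF1-KO versus CRL called 1 of 58, against 1.34%. Each of these 3 belonged to the cofilin group of 13 genes. None was called among the 12 Arp2/3 paralogs and binding proteins, the 15 genes of the WASP family and WAVE regulatory complex or the 9 genes of actin, monomer binding and capping.

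*Limk2*, a LIM kinase that phosphorylates cofilin, was higher in IF1-TG than in CRL. It read -1.55, -2.06 and -1.39 in IF1-TG, -2.84, -3.35 and -2.20 in CRL, and -1.84, -2.63 and -1.96 in IF1-KO. IF1-TG and CRL did not overlap, and the IF1-KO arrays lay among both (IF1-TG minus CRL 1.13, SE 0.33, interval 0.38 to 1.88, unadjusted *P* = 0.0082, adjusted *P* = 0.467 in limma). *Ssh2*, a slingshot phosphatase that dephosphorylates cofilin, was called higher by 0.66 (SE 0.20, unadjusted *P* = 0.0112, adjusted *P* = 0.496 in limma), but on a very dim probe with levels from -5.46 to -4.47, and its brighter probe differed by -0.04. *Cfl2*, the muscle-type cofilin, was called higher in IF1-KO than in CRL on its dimmer probe by 0.67 (SE 0.29, unadjusted *P* = 0.0477, adjusted *P* = 1 in limma). The brighter *Cfl2* probe differed by 0.22 (unadjusted *P* = 0.278 in limma), and no pathway gene was called in this comparison without IF1-KO replicate 1, the array with the highest value on the called probe (-0.14) and with *Atpif1* not reduced. None was called either after quantile normalization, median scaling or no filter, with slide as a block, without slide 1, without CRL replicate 1 or 2 or IF1-TG replicate 3, or with only these 2 genotypes fitted.

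*Actr3b*, the paralog of *Actr3*, was looked up after the *Actr3* values were known. It read 3.01, 2.96 and 2.87 in IF1-TG, 2.99, 2.68 and 2.80 in IF1-KO, and 3.19, 3.01 and 2.91 in CRL, and differed by 0.12 between IF1-TG and IF1-KO (interval -0.17 to 0.41).

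**Figure D5:**
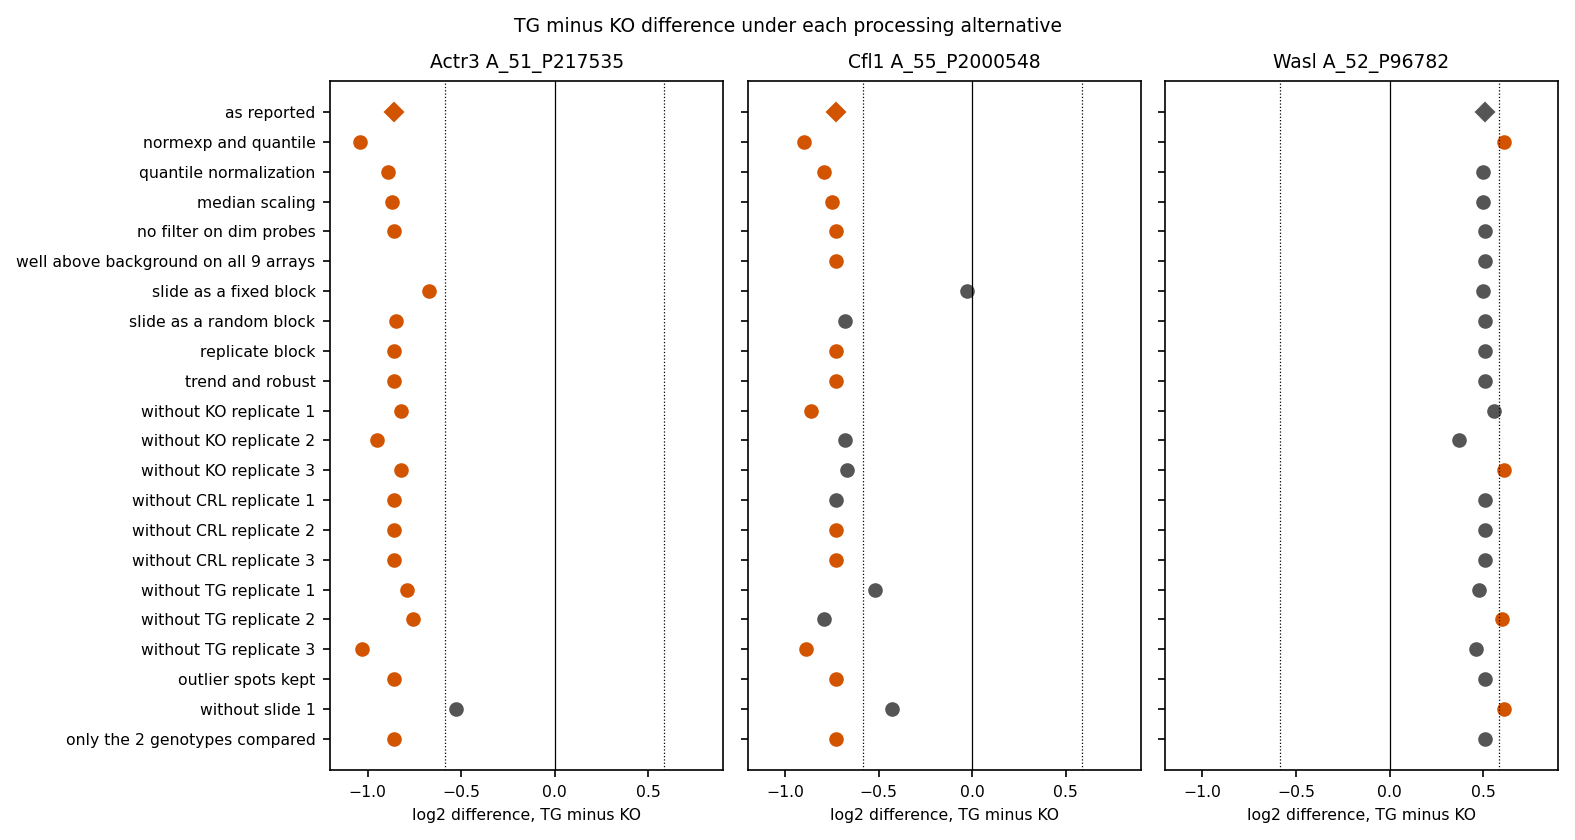
IF1-TG minus IF1-KO log2 difference (x axis) at the *Actr3*, *Cfl1* and *Wasl* probes under each processing alternative (y axis). Diamonds are the reported values, orange marks values past both thresholds and dotted lines mark 1.5-fold. *Actr3* stays between -1.04 and -0.53, *Cfl1* runs from -0.90 to -0.03 and *Wasl* from 0.37 to 0.61.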

How the data were processed

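The authors extracted hippocampal RNA with Trizol and RNeasy columns, labelled it with Cy3 and hybridized it to mouse 4x44K arrays. The deposited files hold intensity values per spot (Feature Extraction 10.7.3.1, processed signal, background-subtracted), with probe positions on mm9. From these deposited signals, log2 values were computed and centred on the 75th percentile of each array, spots flagged as outliers were dropped, and repeated spots averaged per probe. A probe of 60 bases entered the fit where each array of some genotype had it well above background (27993 of 39429). No spot was saturated. limma 3.58.1 under R 4.3.3 was fitted to all 9 arrays by genotype. Beside the members, pathway genes past both thresholds and called or undetected markers are named. A gene is given by its probe with the highest mean signal. Members and lists were chosen with earlier results of these data known. Of the marker lists, *Aqp4* (astrocyte, IF1-TG versus IF1-KO) was called on its dimmer probe only (0.79), and its brighter probe, at 0.40, was not. *Adora2a* (striatum, both comparisons with CRL) was called as well. The neuron, oligodendrocyte, microglia, endothelium and choroid plexus lists had none. RefSeq gave gene chromosomes (GRCm38.p6). Alternatives covered background correction, normalization, filters, slide and replicate blocks, moderation, single arrays left out, samples fitted and, added after seeing the data, outlier spots kept and slide 1 left out. The number of arrays limits the precision. The sequence of one probe and the values of some listed genes are not reported here.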

Additional observations from a re-analysis of the deposited data

How the results depend on the processing

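The member differences, their medians and the counts of calls were recomputed in 21 other settings (20 for *Actr3*), the differences between probes and the single pathway genes in none. Of the single-probe values, 1047 kept their side of the thresholds, 72 of them with a change of sign while uncalled, 9 lost a call and 12 gained one, and no called value changed sign. Called member probes in IF1-TG versus IF1-KO were 2, and 1 with the filter asking for all 9 arrays, with slide as a fixed or a random block, and without slide 1, where the call was the brighter *Wasl* probe (0.61) and neither *Actr3* nor *Cfl1*. With normexp they were 3, that *Wasl* probe included. In IF1-TG versus CRL the 1 call became 0 under that filter, which drops *Actr3* because of its left-out spot, and 3 with slide as a fixed block or without slide 1. Leaving out single arrays gave 1 to 2, 1 to 2 and, for IF1-KO versus CRL, 0 to 1. Pathway genes called in IF1-TG versus IF1-KO were 0, and 1 with normexp or quantile normalization, 2 with slide fixed, 3 without slide 1 and 0 to 1 over single arrays. In IF1-TG versus CRL the 2 became 1 with normexp, 5 with slide fixed or without slide 1, and 2 to 7 over single arrays. In IF1-KO versus CRL the 1 became 2 with normexp and 0 with quantile normalization, median scaling, no filter, either slide block, without slide 1 or with only 2 genotypes fitted, and 0 to 5 over single arrays. Genes called over the array were 1030, 1225 and 294 in the 3 comparisons. They were 557, 557 and 158 with normexp, 3114, 4526 and 723 without the filter, and 2011 and 2441 for the IF1-TG comparisons without slide 1. Slide as a fixed block gave 2175 for IF1-TG versus CRL, and the filter on all 9 arrays 176 for IF1-KO versus CRL. Single arrays left out gave 621 to 1717, 1045 to 1917 and 199 to 1111. The share of calls in IF1-KO versus CRL that were higher was 59.7%, and 82.5% with normexp. In IF1-TG versus IF1-KO that share was 45.7%, and 76.7% without the filter and 24.5% without IF1-TG replicate 3. In IF1-TG versus CRL it was 50.2%, and 82.1% and 27.1% in the same settings. The median over the members in IF1-KO versus CRL was -0.08, and -0.17 to 0 with single arrays left out, the lowest without IF1-KO replicate 1. Where slide 1 is left out, the lone IF1-TG array is assumed to vary like the other groups.

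The replicate numbers did not pair the samples. Same-numbered arrays correlated from -0.17 to 0.12 in their deviations, and 0 of 9 arrays correlated best with their own number. With a replicate block the called member probes were 2, 1 and 0 and the called pathway genes 0, 2 and 1, as without it. The genes called over the array were 1036, 1158 and 328, and the member medians 0.02, -0.11 and -0.08.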
